A study of Mus musculus with 42 samples.

Results

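Unirradiated thymus was compared between mice that carried the AD mutant allele of Trp53 over a null allele and mice that carried 1 wild-type allele over a null allele. These were 6 of the 42 libraries in the series, chosen by genotype, tissue and setting: AD-700, AD-701 and AD-702 (genotype p53 AD/-) and Het-697, Het-703 and Het-855 (genotype p53 +/-), each named by genotype and animal number. The mice were 4 weeks old, on a mixed background that was 50 percent BALB/C and 50 percent C57BL6, and had not been irradiated. Whole thymus was sequenced, and the labels gave no sex, litter or collection batch. Other tissues, other genotypes and thymus taken 4 h after irradiation made up the rest of the series, of which 2 Null libraries of unirradiated thymus shared the estimate of the spread.

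The p53 protein is a transcription factor that binds DNA as a tetramer and, after DNA damage, switches on genes of growth arrest, repair and cell death. Thymocytes, the developing T cells that make up most of the thymus, are known for dying through p53 within hours of irradiation. The series title speaks of p53 dimers, and the AD allele is known from the study as one whose altered tetramerization domain leaves the protein as dimers. In an unstressed cell the ligase Mdm2 and its partner Mdm4 hold p53 low, so a comparison without irradiation asks how far the target genes already depend on which allele is present.

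At rest, no gene passed the test between AD and Het thymus. By edgeR's quasi-likelihood test 0 of 22173 genes (0%) had an adjusted p under 0.05, and the smallest adjusted p was 0.942. At an unadjusted p under 0.05 there were 775 genes (3.5%), 384 higher in AD (1.73%) and 391 lower (1.76%). The median log2 fold change over all genes tested was 0. DESeq2 called 12 of 35849 genes (0.0335%), all but 1 of them higher in AD. Those 12 were Gm10800, 5 other genes that share sequence with it, the Dio2, Hist1h4n, H2-T22, Gm20478 and Gm8810 transcripts, and the muscle myosin Myh2. With edgeR, leaving out AD-702 brought 8 calls, leaving out AD-700 or Het-703 brought 1 each, and keeping every gene with a count brought 16. For 9459 of the 9941 genes with a mean over 10 CPM (counts scaled to library size), or 95.2%, the 95% interval of the log2 fold change lay between -0.5 and 0.5, and for 99.0% it lay between -1 and 1. Over all genes tested these shares were 52.5% and 80.2%, so larger differences in weakly expressed genes were not detectable at this depth and number of mice.

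The 6 libraries held 27828884 to 31817152 counts. The markers showed thymus: Rag1, which recombines T cell receptor genes, stood at 3850 to 4240 CPM, Cd8a at 958 to 1220 CPM and Foxn1, the regulator of thymic epithelium, at 6.83 to 9.99 CPM in all 6. Correlations of log2 CPM between pairs of these libraries ran from 0.9857 to 0.9899, with no gap between pairs of 1 genotype and mixed pairs. The first principal component of the 6 held 26.1% of the variance and the second 22.7%, and AD and Het libraries overlapped on both. Nothing in the labels says whether the mice of a group shared a litter, so p-values measure the spread among these mice only.

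Several libraries differed in markers of muscle and fat, and carry-over of neighbouring tissue at dissection was not tested. Het-697 stood apart in skeletal muscle: its summed skeletal muscle markers came to 1310 CPM against 208 to 372 CPM in the other 5 libraries, and the muscle actin Acta1 stood at 108 CPM against 1.47 to 9.21 CPM. AD-701 stood apart in cardiac and slow muscle, at a summed 200 CPM against 45.1 to 59.6 CPM in AD-700, AD-702, Het-703 and Het-855. Het-697 was lowest there, at 15.2 CPM, and Myh6, the cardiac myosin, ranged from 1.88 CPM in Het-697 to 86.6 CPM in AD-701. Fat went the other way: Het-697 had 409 CPM of white fat markers against 788 to 1110 CPM, and 44.1 CPM of brown fat markers against 154 to 271 CPM in the other 5. Ucp1, the uncoupling protein that defines brown fat, stood at 11.6 CPM in Het-697 and 75.7 to 145 CPM in the other 5. Null-859 and Null-923 were low in fat markers too, at 312 and 304 CPM of white and 70.2 and 44.4 CPM of brown fat. Their cardiac and slow muscle sums were 10.2 and 12.9 CPM, and their skeletal muscle sums 178 and 201 CPM. All 20 skeletal muscle, 12 cardiac and slow muscle, 18 white fat and 12 brown fat markers had counts in at least 1 of the 6 libraries. In a whole tissue, fewer cells of a type and less RNA per cell cannot be told apart.

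**Figure D1:**
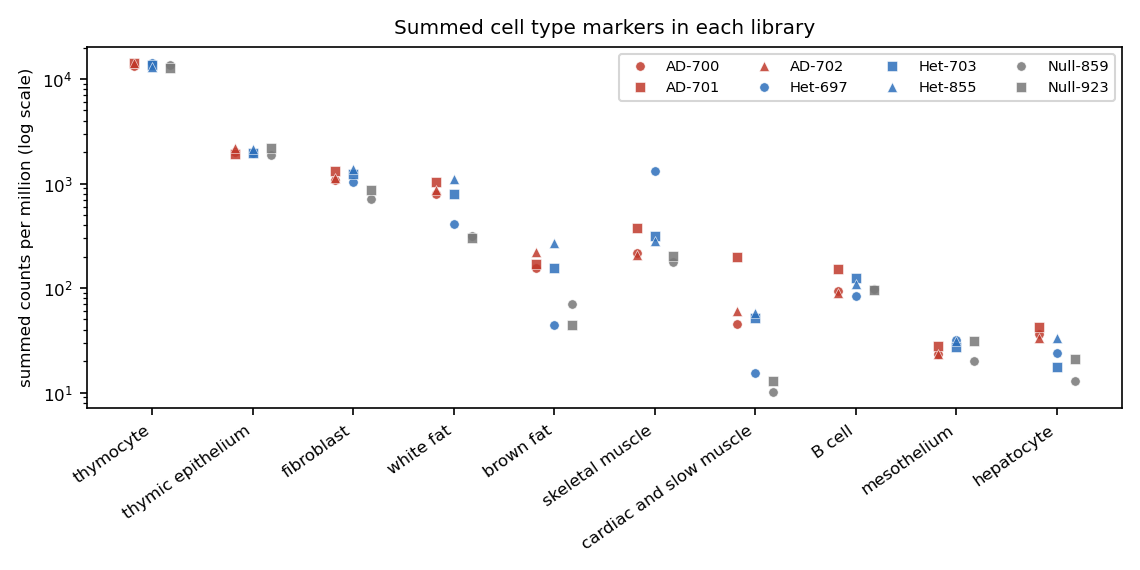
Summed CPM (log scale) of 10 cell type marker lists in the 8 unirradiated thymus libraries, 1 symbol per library. Thymocyte sums lie between 12900 and 14100 CPM in AD and Het, while Het-697 stands at 1310 CPM for skeletal muscle and AD-701 at 200 CPM for cardiac and slow muscle.

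The muscle difference ran through both muscle lists without a call. All 19 skeletal muscle markers tested had a lower mean in AD, where 51.4% of all genes were lower. Their median log2 fold change was -2.48 against 0 over all genes. An unadjusted p under 0.05 was found for 4 of them, beside 1.76% of all genes in that direction. Myh4, a fast-fibre myosin, stood at 2.22, 4.14 and 3.09 CPM in AD-700, AD-701 and AD-702 and at 159, 9.49 and 5.52 CPM in Het-697, Het-703 and Het-855. The AD values lay below all 3 Het values, and the log2 fold change was -4.21 ± 1.58 (± is the standard error throughout). Leaving out Het-697, the difference in mean log2 CPM was -1.23. Myh2, the gene that DESeq2 called lower (adjusted p = 0.00339, and 0.00339 to 1 over 15 alternatives), stood at 0.163, 0.218 and 0.336 CPM in AD and at 27.4, 6.44 and 1.01 CPM in Het. Of the 10 cardiac and slow muscle markers tested, 9 had a higher mean in AD, with a median log2 fold change of 1.22. By edgeR the median of the skeletal muscle list was -0.54 without Het-697, and that of the cardiac and slow muscle list was 0.90 without Het-697 and 0.23 without AD-701. Without Het-697 and AD-701 together, a choice made after seeing the data, edgeR again called 0 genes, with 904 at an unadjusted p under 0.05.

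Fat lists had medians near that of all genes: 0.17 for 18 white fat markers and 0.02 for 12 brown fat markers, with 0 called in either. Without Het-697 both medians were below 0, at -0.11 and -0.40. The fat binding protein Fabp4 stood at 195, 239 and 194 CPM in AD and 77.1, 191 and 265 CPM in Het, and Het-697 was again the low one. One brown fat marker went further than the rest. Dio2, which turns thyroxine into its active form, stood at 15.9, 13.2 and 12.8 CPM in AD and at 5.26, 8.70 and 8.57 CPM in Het. Its log2 fold change was 0.89 ± 0.19, with an edgeR adjusted p of 0.999 and a DESeq2 adjusted p of 0.00487. Over 15 alternatives its adjusted p ran from 6.6e-07, with no filter, to 1, and 2 of them called it. The other brown fat genes did not move with it: Cidea had a log2 fold change of 0.07 ± 0.71 and Cox8b one of -0.11 ± 0.59.

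Trp53 itself was read as the check on the labels. It lies on chromosome 11 from 69580359 to 69591873 on GRCm38, and its transcript stood at 37.5, 33.7 and 30.1 CPM in AD-700, AD-701 and AD-702. The Het values were 39.1 CPM in Het-697, 33.9 CPM in Het-703 and 38.5 CPM in Het-855, so the groups overlapped. AD mice averaged 33.8 CPM (SD 3.66, n = 3) and Het mice 37.2 CPM (SD 2.82, n = 3). The log2 fold change was -0.14 ± 0.09, with a 95% interval from -0.33 to 0.05. Both stood above the 20.5 and 21.8 CPM of the 2 Null libraries. A gene-level count does not tell the AD allele from the wild-type one. Within 10 Mb of Trp53, 13 of 421 genes tested (3.09%) had an unadjusted p under 0.05 and 0 were called, close to the 3.5% of all genes.

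The targets of p53 were read as a fixed set of 18 genes that held Trp53, its regulators and well-known targets. By the sign of the log2 fold change the set was 13 lower and 5 higher in AD, where 51.4% of all genes were lower. Its median was -0.08 beside 0 for all genes, and 0 of 18 were called. In 3 members all AD libraries lay below all Het libraries, against 4.36% of all genes, and in 1 all lay above, against 4.88%. The 3 were Cdkn1a, Ccng1 and Bax, and the stretches before their start sites are shown for a p53 half-site, the 10-base motif that a p53 dimer contacts. A half-site was also found near the starts of Aen, Mdm2, Polk and Trp53, whose AD and Het values overlapped, so its presence did not single out the 3. The sequences come from RefSeq on GRCm38.p6, each with 250 bases that end next to the annotated start and with half-sites in capitals. The Cdkn1a stretch is chr17:29090729-29090978 on the plus strand, the Ccng1 stretch is chr11:40755287-40755536 on the minus strand, and the Bax stretch is chr7:45466899-45467148 on the minus strand.
Cdkn1a: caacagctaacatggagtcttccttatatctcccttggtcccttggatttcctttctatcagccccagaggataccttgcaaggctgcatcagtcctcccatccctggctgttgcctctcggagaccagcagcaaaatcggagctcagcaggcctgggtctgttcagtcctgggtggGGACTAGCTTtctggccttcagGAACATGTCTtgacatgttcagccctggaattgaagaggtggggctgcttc
Ccng1: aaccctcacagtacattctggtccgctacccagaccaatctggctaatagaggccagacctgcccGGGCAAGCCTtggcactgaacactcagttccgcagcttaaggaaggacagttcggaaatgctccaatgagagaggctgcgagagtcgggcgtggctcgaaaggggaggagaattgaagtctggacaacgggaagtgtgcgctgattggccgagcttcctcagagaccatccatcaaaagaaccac
Bax: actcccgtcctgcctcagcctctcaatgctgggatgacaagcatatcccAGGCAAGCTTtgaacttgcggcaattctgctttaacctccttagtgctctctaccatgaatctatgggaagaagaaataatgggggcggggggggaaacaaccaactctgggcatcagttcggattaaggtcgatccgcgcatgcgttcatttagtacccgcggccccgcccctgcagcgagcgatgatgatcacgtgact
Windows of 300 bases, from 250 before to 50 after the start, were searched for the half-site, whose pattern reads the same on both strands. It was in 8 of 22 windows of the fixed set (36.4%) and in 8.36% of all 32851 windows, and 15 of the 18 genes had a window. A pair of half-sites with at most 13 bases between them stood in 24 of all windows (0.0731%), and the Cdkn1a window was 1 of them. Only exact matches to the pattern were counted, so a half-site with a base off the pattern stays in lower case. A match in these letters is a description and not a bound site.

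Among the arrest genes, Cdkn1a, the inhibitor of cyclin-dependent kinases, stood at 3.07, 4.39 and 3.66 CPM in AD-700, AD-701 and AD-702. In Het it stood at 4.64 CPM in Het-697, 5.61 CPM in Het-703 and 4.76 CPM in Het-855, so every AD value lay below every Het value, with AD-701 only just below. The log2 fold change was -0.44 ± 0.18, with a 95% interval from -0.81 to -0.06, an unadjusted p of 0.0247 and an adjusted p of 0.999 by edgeR. The Null libraries stood at 3.02 and 3.06 CPM, next to the lowest AD library. Ccng1, a cyclin that rises with p53 activity, stood at 145, 146 and 142 CPM in AD and at 160, 165 and 151 CPM in Het. Its groups did not overlap, and the log2 fold change was -0.14 ± 0.06 (unadjusted p = 0.0375). The Null libraries were lower again, at 132 and 134 CPM. Plk2, a polo-like kinase and p53 target, went the other way: it stood at 7.31, 7.28 and 6.39 CPM in AD and at 5.64, 4.89 and 5.83 CPM in Het. Its log2 fold change was 0.35 ± 0.16 (unadjusted p = 0.0445), so the 3 members of the set below 0.05 did not share a direction. Eda2r, a TNF receptor family member, was weakly counted, at 0.490, 0.871 and 0.437 CPM in AD and 0.714, 1.08 and 0.937 CPM in Het, with groups that overlapped and a log2 fold change of -0.59 ± 0.35.

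**Figure D2:**
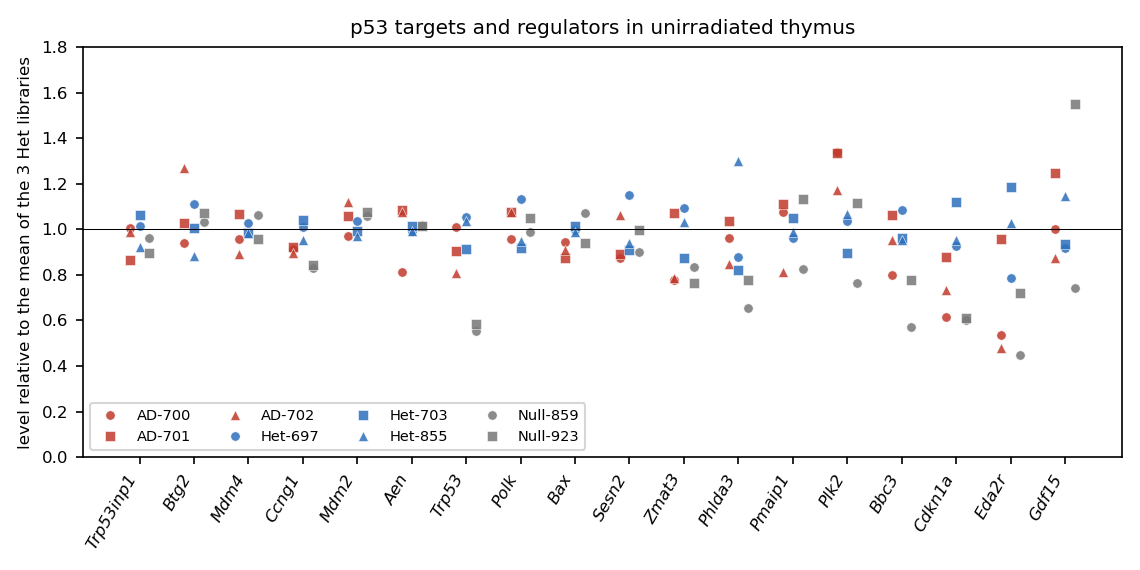
Level of each of 18 p53 targets and regulators in the 8 unirradiated thymus libraries, divided by the mean of the 3 Het libraries (linear axis from 0; 1 symbol per library, genes ordered by CPM). AD values for Cdkn1a lie at 0.614 to 0.877 and for Plk2 at 1.17 to 1.34, and Trp53 in the Null libraries lies at 0.552 and 0.587.

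Of the death genes of the set, Bax, which permeabilizes mitochondria, stood at 12.8, 11.8 and 12.3 CPM in AD and at 13.5, 13.7 and 13.4 CPM in Het, a log2 fold change of -0.14 ± 0.11. Bbc3, which encodes the BH3-only protein PUMA, stood at 5.12, 6.78 and 6.08 CPM in AD and at 6.94, 6.15 and 6.08 CPM in Het. The groups shared a value, and the log2 fold change was -0.10 ± 0.16. Pmaip1, which encodes NOXA, had the same mean of 9.08 CPM in both groups, and the exonuclease gene Aen had a log2 fold change of -0.02 ± 0.10. The regulators did not differ beyond their spread either: Mdm2 ranged from 137 to 158 CPM in AD and from 137 to 146 CPM in Het (0.06 ± 0.07), and Mdm4 had a log2 fold change of -0.04 ± 0.07. For Mdm2 the 95% interval ran from -0.08 to 0.20. The remaining members were Trp53inp1 (-0.08 ± 0.08), Btg2 (0.10 ± 0.11), Sesn2 (-0.09 ± 0.13), Zmat3 (-0.19 ± 0.14), Phlda3 (-0.08 ± 0.16), Polk (0.04 ± 0.09) and Gdf15 (0.06 ± 0.41), and in each the groups overlapped.

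Wider lists of p53 targets held 0 called genes as well. Of 26 targets of cell cycle arrest and repair, 15 had a higher mean in AD and 11 a lower one, with a median log2 fold change of 0.04. Of 20 apoptosis targets, 3 were higher and 17 lower, where 51.4% of all genes were lower. Their median was -0.07, with 0 members at an unadjusted p under 0.05. The apoptosis list ran from -0.59 for Eda2r to 0.05, and in 3 of its 20 members all AD libraries lay below all Het ones, against 4.36% of all genes. These were Bax, the death receptor gene Tnfrsf10b (-0.35 ± 0.18) and Triap1 (-0.09 ± 0.10), the last 2 named after their values were seen. Apaf1, the core of the apoptosome, had a log2 fold change of -0.03 ± 0.07, and the BH3-only gene Bcl2l11 had one of 0.01 ± 0.08. Of 17 metabolism targets tested, 10 were higher and 7 lower, with a median of 0.01. The lipid exporter Abca1 stood at 141, 139 and 122 CPM in AD and 115, 113 and 149 CPM in Het, and the groups overlapped. Ddit4, an inhibitor of mTORC1, had the largest log2 fold change of the metabolism targets, 0.58 ± 0.30. Its value in AD-701 was 106 CPM against 59.4 and 63.3 CPM in the other AD libraries and 37.6 to 62.3 CPM in Het. Dglucy, an enzyme of D-glutamate breakdown chosen here after its value was seen, stood at 6.76, 7.62 and 7.46 CPM in AD and 8.05, 9.06 and 9.75 CPM in Het (log2 fold change -0.30 ± 0.13).

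Markers of thymocytes lay close together in the 2 groups. Of 16 thymocyte markers 13 had a slightly higher mean in AD, where 48.6% of all genes were higher. Their median log2 fold change was 0.05, with a range from -0.03 to 0.18. Markers of early thymocytes (median -0.04 over 12), mature thymocytes (-0.06 over 13) and regulatory T cells (-0.11 over 9) had 0 called members. Without AD-702 the mature thymocyte and regulatory T cell medians were 0.04 and 0.01. Thymic epithelium had a median of -0.02 over 18 markers. B cell markers summed to 153 CPM in AD-701 and 84.3 to 124 CPM in the other 5. The 6 mesothelium markers, which belong to the lining of the body cavities, were all lower in AD by the mean, with a median of -0.43. Of these Upk3b stood at 4.18, 6.01 and 6.25 CPM in AD and 7.79, 7.05 and 7.74 CPM in Het, a log2 fold change of -0.46 ± 0.16. The summed mesothelium level overlapped, at 23.4 to 27.8 CPM in AD and 27.5 to 32.0 CPM in Het.

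Other pathways showed small shifts, none of which held a called gene. Over all genes tested 51.4% were lower in AD and 48.6% higher, and no list was tested as a set. Interferon-stimulated genes, which answer viral infection, were lower in AD in 25 of 27 members, with a median log2 fold change of -0.14. Ifit1, which binds viral RNA, stood at 30.3, 29.1 and 26.6 CPM in AD and at 35.5, 37.7 and 39.6 CPM in Het, with a log2 fold change of -0.40 ± 0.08. Its adjusted p was 0.999 by edgeR (unadjusted p = 0.000194). Over 15 alternatives the adjusted p of Ifit1 ran from 0.0258, with no filter, to 1, and 1 of them called it. Among other members, Ifit2 had a log2 fold change of -0.09 ± 0.09 and the transcription factor gene Irf9 one of -0.08 ± 0.07. Summed interferon-stimulated levels overlapped, at 698 to 808 CPM in AD and 781 to 866 CPM in Het. Genes of cholesterol synthesis had a higher mean in AD in 22 of 25 members (median 0.11). The synthase gene Hmgcs1 stood at 82.6, 84.8 and 103 CPM in AD and 68.5, 84.2 and 90.1 CPM in Het, a log2 fold change of 0.15 ± 0.11. Its groups overlapped, and AD-702 had the highest summed level of the list, 962 CPM against 766 to 822 CPM in the other 5.

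Replication genes leaned lower in AD, in 35 of 50 members beside 51.4% of all genes, with a median of -0.06. An unadjusted p under 0.05 was found for 6 members, all lower, beside 1.76% of all genes in that direction. Uhrf1, which keeps DNA methylation through replication, stood at 364, 324 and 413 CPM in AD and 440, 400 and 443 CPM in Het, a log2 fold change of -0.22 ± 0.09. The sliding clamp Pcna had a log2 fold change of -0.15 ± 0.08, and genes of G2 and mitosis had a median of -0.03 over 50. The replication sum was lowest in AD-701, at 4720 CPM, and highest in AD-702, at 5780 CPM, so both ends of the range were AD. Without AD-701 the median of the list was 0.02, and without AD-702 it was -0.13. Heat shock genes were lower in AD in 16 of 18 members (median -0.08), and the chaperone Hspa8 stood at 860, 1270 and 1060 CPM in AD and 1600, 1140 and 1170 CPM in Het. The highest of these was again Het-697. Extracellular matrix genes were lower in 29 of 35 (median -0.06, and 0.04 without Het-855), core clock genes higher in 15 of 19 (median 0.11), and immediate early genes higher in 17 of 22 (median 0.09). Oxidative phosphorylation (0.01 over 57), fatty acid oxidation (0.05 over 25), glycolysis (-0.04 over 22), PPAR targets (0.07 over 38), NF-kB targets (-0.01 over 25), the integrated stress response (0.07 over 18) and nucleolar and MYC targets (-0.02 over 25) stayed near the median of all genes.

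The gene with the smallest p among all was a histone gene. Hist1h4n, which encodes histone H4, lies on chromosome 13 from 21831767 to 21832196 and stood at 160, 154 and 169 CPM in AD and at 107, 97.5 and 96.4 CPM in Het. The groups were far apart, with a log2 fold change of 0.68 ± 0.11 and an adjusted p of 0.942 by edgeR and 2.56e-06 by DESeq2. Over 15 alternatives its adjusted p ran from 4.76e-17, with no filter, to 1, and 3 called it. The 2 Null libraries, at 116 and 163 CPM, lay between the groups and within the AD range. Of the 59 clustered histone genes tested, a group chosen after the values were seen, 54 had a higher mean in AD (48.6% of all genes did), with a median log2 fold change of 0.14, and 5 (8.47%) had all AD libraries above all Het ones, against 4.88% of all genes. AD-702 stood apart here: it was the highest of the 6 libraries in 54 of the 59 genes, while AD-701 lay below all 3 Het libraries in 23. Without AD-702 the median was 0.02. One member split the libraries in another way: Hist1h4m, its neighbour on chromosome 13 from 21811746 to 21812147, stood at 11.4, 11.4 and 89.4 CPM in AD and 56.3, 51.6 and 48.3 CPM in Het. The Null libraries, at 9.90 and 9.83 CPM, stood with AD-700 and AD-701. Histone genes are near-identical copies, so the counting could move reads between them, and their values are uncertain.

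The other genes of smallest p that were higher in AD were Neil1, a DNA glycosylase of base excision repair (33.3, 34.1 and 37.8 CPM against 26.4, 28.6 and 26.3 CPM, log2 fold change 0.37 ± 0.08), Gm10719 and Gm20478. Lower in AD were Gpm6a, a neuronal membrane glycoprotein, at 1.89, 2.40 and 2.02 CPM against 4.12, 4.17 and 3.51 CPM in Het, and Mbl2, a lectin of the complement system, at 0.124 to 0.235 CPM against 0.575 to 0.625 CPM. The log2 fold change was -0.91 ± 0.19 for Gpm6a and -1.79 ± 0.44 for Mbl2, whose groups did not overlap. The splicing factor Tra2b stood at 213, 223 and 224 CPM in AD and 268, 256 and 250 CPM in Het (-0.23 ± 0.06). Igha, the constant region of immunoglobulin A, stood at 50.1, 38 and 39.9 CPM in AD and 53, 54.7 and 54.4 CPM in Het (-0.35 ± 0.09). In all of these the adjusted p was 0.999 by edgeR. With no filter Igha was called, at an adjusted p of 0.0481, the lowest of 15 alternatives, which reached 1.

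Larger differences were few and belonged mostly to 3 groups of genes. Of 14733 genes with a mean over 1 log2 CPM, 31 had a log2 fold change beyond 1 in size. Of these 31, 17 were on the muscle lists, 4 were Gm10800 and genes sharing sequence with it, and 3 were H2 genes. All were chosen here after their values were seen, and 15 of the 31 were lower in AD. Without Het-697 the count was 22, of which 6 were muscle markers, and without the other libraries in turn it was 35 to 43, with 13 to 20 muscle markers. Among the remaining 7, Mybpc1 and Xirp2 were also highest in Het-697, at 20.2 and 13.8 CPM. The other libraries held 1.68 to 4.65 CPM of Mybpc1 and 1.14 to 4.05 CPM of Xirp2. Gm20478, given below, lay in the H2 stretch. Cyp2e1 stood at 23.3, 27.9 and 22.1 CPM in AD and 9.73, 5.29 and 18.8 CPM in Het (1.11 ± 0.51). Eps8l1 stood at 1.31, 1.49 and 1.41 CPM in AD and 3.31, 1.58 and 3.65 CPM in Het (-1.02 ± 0.28). Gm9967 stood at 8.91 CPM in AD-700 and at 1.21 and 1.08 CPM in AD-701 and AD-702, with 8.21 to 8.68 CPM in the Het libraries. Gm14150, a processed pseudogene, stood at 7.08, 7.31 and 7.63 CPM in AD and at 1.30, 6.47 and 1.60 CPM in Het. Gm9967 and Gm14150 each split in a high and a low level with the low level in only some mice of a group.

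The H2 genes were of the T region of the major histocompatibility complex on chromosome 17, which holds class Ib genes. H2-T10 stood at 128 and 156 CPM in AD-700 and AD-701 and at 50.2 CPM in AD-702, against 25.2, 41.0 and 25.2 CPM in Het. H2-T3, the thymus leukemia antigen, stood at 107, 129 and 30.9 CPM in AD and 16.9, 27.9 and 18.9 CPM in Het. The pseudogene H2-T-ps followed, at 42.3, 46.7 and 15.7 CPM against 11.4, 10.6 and 8.44 CPM. In these 3 genes AD-700 and AD-701 stood high while AD-702 lay above the Het range by far less, and the log2 fold changes were 1.87 ± 0.48, 2.06 ± 0.58 and 1.78 ± 0.45. Neighbouring H2-T23 did not share this, with 169 to 188 CPM in AD and 166 to 173 CPM in Het, and H2-T22 differed less (0.50 ± 0.12, DESeq2 adjusted p = 0.0189, and 2.14e-08 to 1 over 15 alternatives). Within the stretch from 35905695 to 36290287 on chromosome 17, 7 of 31 genes tested (22.6%) had all AD libraries above all Het ones, against 4.88% of all genes. In the same direction 10 (32.3%) had an unadjusted p under 0.05, against 1.73% of all genes, with 0 called by edgeR. The stretch was chosen after its values were seen. Null-859 and Null-923 lay within the Het range, at 30.5 and 30.4 CPM of H2-T10 and 21.4 and 22.3 CPM of H2-T3. The mice were of a mixed background, and the strain origin of this stretch in each mouse was not tested. Without AD-702 edgeR called 8 genes, 7 of them higher in AD, and 4 of the 7 (H2-T-ps, H2-Bl, Gm20478 and Gm8810) lay in that stretch. In irradiated thymus H2-T-ps stood at 29.3 to 34.5 CPM in the 4 Het libraries and 11.9 to 14.5 CPM in the 4 AD libraries. The other 2 did not follow it there: H2-T10 stood at 36.9 to 53 CPM in Het and 48.5 to 58.7 CPM in AD, and H2-T3 at 15.9 to 40.9 CPM in Het and 25.1 to 29.8 CPM in AD, with groups that overlapped. Gm20478, an antisense transcript, stood at 5.78, 8 and 2.29 CPM in AD and 1.20, 1.65 and 1.39 CPM in Het (1.92 ± 0.41), and the pseudogene Gm8810 at 2.06, 2.77 and 0.202 CPM against 0.357, 0.18 and 0.0694 CPM. The H2 genes are close copies and no source used here says that the counting used strand, so reads could be split among them and between Gm20478 and its partner, and these values are uncertain.

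**Figure D3:**
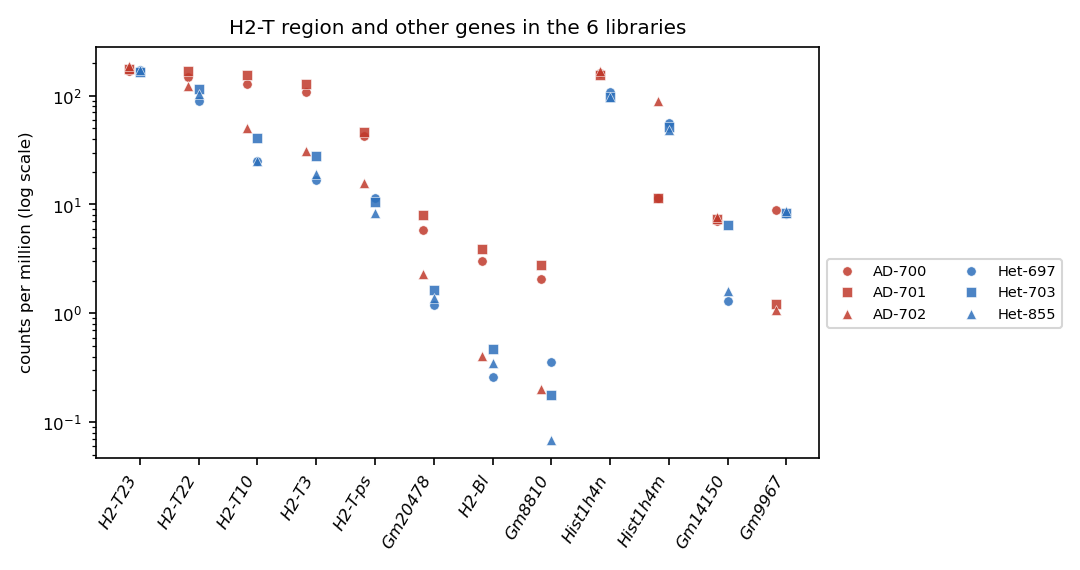
CPM (log scale) of 8 genes of the H2-T region, 2 histone H4 genes and 2 further transcripts in the 6 AD and Het libraries, 1 symbol per library. H2-T10 stands at 128 and 156 CPM in AD-700 and AD-701, Hist1h4m at 11.4 CPM in the same pair and 48.3 to 89.4 CPM in the other 4.

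Among genes over 1 log2 CPM, the largest fold changes with higher AD values belonged to Gm10800 and genes that share sequence with it. They are annotated as predicted genes and were grouped here as satellite sequence, a repeat, so their counts need not come from separate genes. Besides Gm10800 itself, 12 others share at least 10 runs of 25 bases with it on either strand. A shared stretch is shown because a read from it could be counted for either gene: 99 bases, in capitals, are the same in Gm26870 on chromosome 9 and in Gm10800 on chromosome 2. The first line is bases 806 to 944 of the Gm26870 transcript. The second is the reverse complement of bases 248 to 386 of the Gm10800 transcript, both from GENCODE M21.
Gm26870: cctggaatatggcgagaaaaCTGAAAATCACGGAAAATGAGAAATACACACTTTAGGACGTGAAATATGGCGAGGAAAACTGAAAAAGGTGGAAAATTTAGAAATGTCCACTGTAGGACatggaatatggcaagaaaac
Gm10800: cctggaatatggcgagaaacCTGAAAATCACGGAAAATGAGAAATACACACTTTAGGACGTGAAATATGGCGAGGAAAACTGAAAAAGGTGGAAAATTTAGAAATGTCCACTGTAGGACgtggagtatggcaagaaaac
Of Gm10800 and these genes, 13 in all, 9 passed the filter on low counts. In 8 of these all AD libraries lay above all Het ones (4.88% of all genes). The 8 are not separate results, because the genes share sequence and were chosen after Gm10800 was seen to be high. Weak members such as Gm10719 and Gm11168 could also pass the filter through their AD counts. Gm10800 stood at 650, 299 and 2230 CPM in AD-700, AD-701 and AD-702 and at 77.5, 96.2 and 71.5 CPM in Het-697, Het-703 and Het-855. The AD values spread widely among themselves while the Het values lay close together. The log2 fold change was 3.69 ± 0.84 (adjusted p = 0.999 by edgeR and 0.003 by DESeq2, the lowest of 15 alternatives, which reached 1). Gm26870 stood at 5.81, 3.08 and 16.9 CPM in AD and at 0.941, 0.755 and 0.555 CPM in Het, with the AD libraries in the same order. Gm10719, which the rule for smallest p named, stood at 0.946, 0.249 and 1.38 CPM against 0.130, 0.108 and 0.208 CPM (2.48 ± 0.61). The range over the 9 genes was 1.93 to 3.69, and the 2 Null libraries stood with Het, at 105 and 107 CPM of Gm10800. With scaling over all 24 thymus libraries, the irradiated Het libraries held 295 to 2270 CPM of Gm10800 and the irradiated AD libraries 53 to 565 CPM. The 4 irradiated libraries of a further genotype, labelled RP, ran from 27.6 to 634 CPM. Irradiated AD-633, RP-654 and RP-656, at 565, 435 and 634 CPM, lay within the irradiated Het range. In the other tissues of AD mice Gm10800 stood at 0 to 1.19 CPM in liver, 1.69 to 10.9 CPM in pancreas and 75.9 to 165 CPM in intestine. Null mice had 0 to 0.335 CPM in liver, 0.468 to 23.3 CPM in pancreas and 152 to 285 CPM in intestine, so AD was not above Null throughout.

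**Figure D4:**
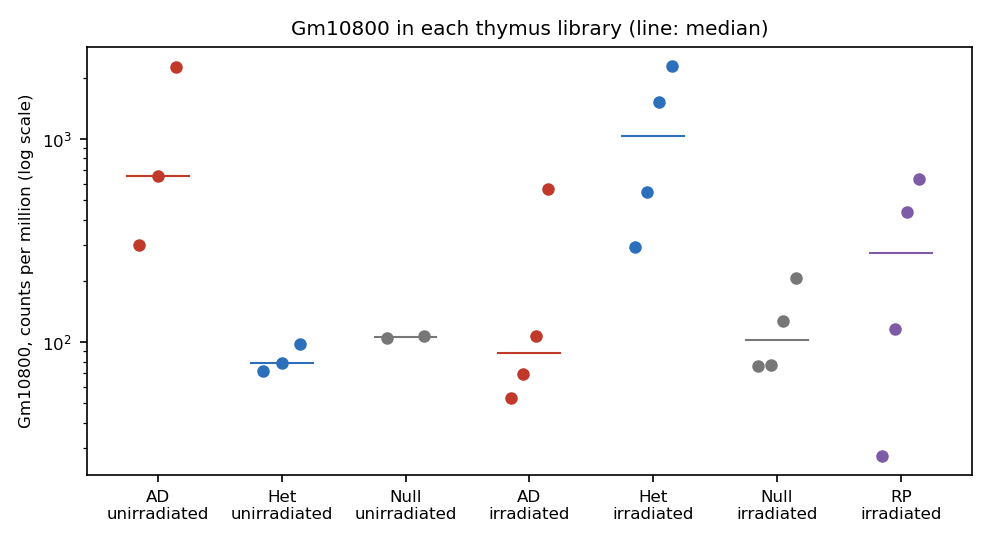
Gm10800 in each of the 24 thymus libraries, in CPM (log scale), by genotype and setting, with a line at each group's median. Unirradiated AD and irradiated Het libraries are high, at 301 to 2260 and 295 to 2270 CPM, and unirradiated Het libraries are at 71.9 to 97.7 CPM. Irradiated AD-633, RP-654 and RP-656, at 565, 435 and 634 CPM, lie within the high ranges.

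The sexes were balanced by their transcripts. Ddx3y, on the Y chromosome, stood at 192 to 229 CPM in AD-700, AD-701, Het-697 and Het-855 and at 3.29 and 8.06 CPM in AD-702 and Het-703. Xist, which silences an X chromosome in females, stood at 680 CPM in AD-702 and 935 CPM in Het-703, so each group read as 2 males and 1 female. Xist was also present at 48.8 and 49.5 CPM in AD-700 and AD-701, 164 CPM in Het-855 and 7.30 CPM in Het-697, all of which had Ddx3y. In the liver of AD-700 and AD-701 it stood at 0.422 and 0.109 CPM. The source of Xist in these 4 thymus libraries was not tested.

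The same AD against Het comparison in irradiated thymus, with 4 mice a group and no library in common, gave the size that a difference in p53 targets can take in this tissue. There edgeR called 2049 genes lower in AD (8.68%) and 1556 higher (6.59%), and 17 of the 18 fixed genes were among the lower ones. The set was chosen with earlier results of these data known, so its counts here are a description and not a test. Of the 18, 15 differed between the 2 settings by the edgeR test of the difference itself, all with AD further below Het after irradiation, against 2.94% of the 23605 genes tested. Cdkn1a averaged 3.75 CPM in AD and 5.06 CPM in Het at rest, and 4.37 CPM in AD and 41.8 CPM in Het after irradiation. Its log2 fold change was -0.43 ± 0.14 at rest in this joint fit and -3.26 ± 0.12 after irradiation, a difference of 2.83 ± 0.18 (adjusted p = 7.28e-11). Plk2, higher in AD at rest (0.36 ± 0.14), stood at 5.85 CPM in AD and 98.1 CPM in Het after irradiation (-4.07 ± 0.13). For Bbc3 the difference between the settings was 3.83 ± 0.25, for Gdf15 5.11 ± 0.61, for Bax 2.58 ± 0.13 and for Ccng1 2.68 ± 0.11. Mdm2 (0.77 ± 0.08) and Trp53inp1 (0.85 ± 0.14) had the smallest called differences of the set. Trp53, Mdm4 and Btg2 were the 3 members not called, with differences of -0.31 ± 0.11, 0.33 ± 0.13 and 0.52 ± 0.17.

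**Figure D5:**
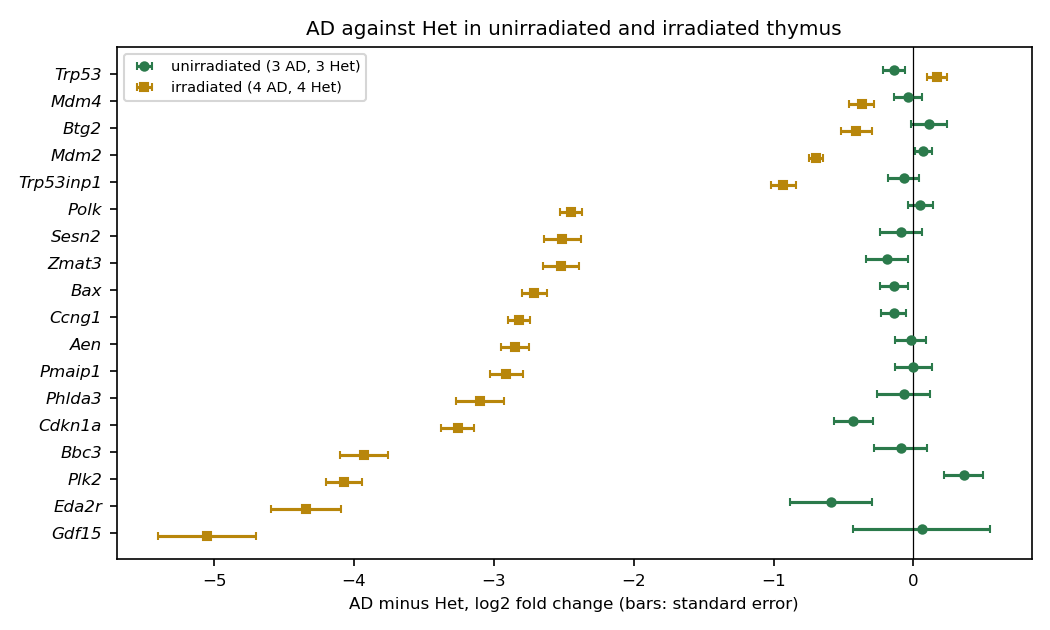
Log2 fold change of AD minus Het for the 18 p53 targets and regulators, in unirradiated thymus (3 mice a group) and irradiated thymus (4 mice a group), with bars of 1 standard error. At rest Cdkn1a stands at -0.43 and Plk2 at 0.36, and after irradiation they stand at -3.26 and -4.07.

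Over all genes 940 of 23605 (3.98%) differed between the settings, 694 in the direction of a larger AD deficit after irradiation and 246 (1.04%) in the other. That count was 611 without Het-703, 1584 without the irradiated library Het-631 and 479 without Het-697 and AD-701 together. Of the lists, 17 of 26 arrest and repair targets, 14 of 20 apoptosis targets and 7 of 17 metabolism targets differed in the first direction. Their median differences were 1.19, 1.01 and 0.62 beside -0.01 over all genes. These lists too were chosen with earlier results of these data known, so the counts only describe them. Atf3, a stress transcription factor, differed by 4.51 ± 0.32, from 0.29 ± 0.25 at rest to -4.22 ± 0.21 after irradiation. In the other direction were the transaminase Bcat1, at -0.11 ± 0.30 at rest and 1.81 ± 0.29 after irradiation, and the deoxycytidylate deaminase Dctd, at 0.00 ± 0.22 and 1.83 ± 0.22. At rest Dctd averaged 4.63 CPM in both groups.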

How the data were processed

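The authors deposited raw counts, whole-number read counts per gene for 49585 gene identifiers in 42 libraries. The aligner was STAR 2.6.0b and the build GRCm38, with DESeq2 also listed, per the submitters' processing notes. Counter, strand setting and annotation release are not given in the sources used here. The unirradiated thymus columns carried no tissue in their names and were matched as the only sample left for each animal. GENCODE M21 named 49326 identifiers and missed 259.

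The edgeR 4.0.16 fits, run in R 4.3.3 beside limma 3.58.1, used filterByExpr, TMM scaling and robust quasi-likelihood F tests over the 8 unirradiated thymus libraries (3 AD, 3 Het, 2 Null; biological coefficient of variation 0.119), contrast AD minus Het, and over all 24 thymus libraries (0.145) for the difference between settings. A call was a Benjamini-Hochberg adjusted p under 0.05, computed over all genes tested. CPM values are TMM-scaled within the libraries of each fit, those for other tissues and Xist by tissue are scaled within that comparison, and log2 CPM used a prior count of 2. The scripts were tested on simulated data. Chi-square values per degree of freedom were 5.73 to 12.4 between unirradiated AD libraries and between unirradiated Het libraries, so none was a copy within its group. Other pairs were not compared.

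The members and gene lists were chosen with earlier results of these data known. Named genes were Trp53 and the fixed p53 set, up to 15 called genes in each direction (if averaging 1 log2 CPM or more), or where fewer than 10 were called the genes of smallest p up to 5, up to 4 members of a list, and, for the difference between settings, up to 5 in each direction. Some genes that met this rule are left out of the text. Alternatives were RLE scaling, no filter, DESeq2 1.42.0, covariates for Xist, Adipoq and Acta1, other sets of libraries and leaving out each library.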

Additional observations from a re-analysis of the deposited data

Results flagged for a closer look

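AD minus Het differed between unirradiated and irradiated thymus, by edgeR's test of the difference, in 15 members of the p53 set. On the log2 scale, as the unirradiated minus the irradiated fold change, the values were 5.11 for Gdf15, 4.43 for Plk2, 3.83 for Bbc3, 3.75 for Eda2r, 3.02 for Phlda3, 2.91 for Pmaip1, 2.83 for Cdkn1a, 2.83 for Aen, 2.68 for Ccng1, 2.58 for Bax, 2.50 for Polk, 2.42 for Sesn2, 2.33 for Zmat3, 0.85 for Trp53inp1 and 0.77 for Mdm2.

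Outside the set the same test picked out Gm26870 (7.21), Gm10800 (6.24), Gm10801 (6.18), Gm21738 (5.97) and Atf3 (4.51), and in the other direction Gm44439 (-2.22), Bcat1 (-1.92), Gm44441 (-1.91), Dctd (-1.83) and Chl1 (-1.38). The 4 predicted genes share sequence, so they are not separate results, and AD lay above Het at rest and below Het after irradiation in each. Gm44439 and Gm44441 are short transcripts within the span of the adhesion molecule gene Chl1 on chromosome 6, and the 3 cannot be told apart without strand or transcript counts. Groups of 3 mice were too small to test for an outlying library.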

How the results depend on the processing

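No paired analysis was possible because no animal gave both an AD and a Het library, so the animal numbers pair nothing. Against 0 genes called by edgeR, the alternatives called 0 with RLE scaling and with the Acta1 covariate, 16 with no filter, 12 with DESeq2, 2 with the Xist covariate (Gm10717 and Mybpc1), 1 with the Adipoq covariate (Me1), 1 with only the 6 AD and Het libraries (Hist1h4n) and 1 with all 24 thymus libraries (H2-T-ps). Leaving out 1 library called 0 to 8 genes: 8 without AD-702, 1 without AD-700 (Gm9967), 1 without Het-703 (Gm14150) and 0 without each of the other 3. The number of list members called was 0 under all but no filter (3), DESeq2 (2) and the Adipoq covariate (1), and it was 0 without any single library. No member of the p53 set was called under any of these.

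The median of the arrest and repair targets moved from 0.04 to 0.10 without Het-697 and AD-701 together. The apoptosis median of -0.07 was -0.04 with the Acta1 covariate and -0.08 to -0.03 without single libraries, highest without Het-697. The metabolism median of 0.01 was -0.01 with the Acta1 covariate and 0.02 to 0.05 without single libraries. The arrest and repair median ran from 0 to 0.08 without single libraries. The difference between settings was called for 940 genes, for 611 to 1584 without single libraries (611 without Het-703, 1584 without irradiated Het-631), and for 479 without Het-697 and AD-701. Gm10800 lost its call in that test without Het-697, AD-702, Het-703 or Het-855, as did Gm21738, while Gm10801 lost it without Het-697 and Chl1 without AD-700, and all 4 lost it without Het-697 and AD-701 together. All 15 members of the p53 set kept theirs. The values without single libraries for the histone median and for the count past a log2 fold change of 1 were chosen after seeing the data. With 3 mice a group, small differences in weak genes are beyond reach.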
